A study of Mus musculus with 8 samples.

Results

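Of the genes that build cholesterol and control its synthesis, 8 were followed in sorted fractions of mouse mammary tumors. They are Hmgcs1, Idi1, Fdft1, Sqle, Lss and Cyp51, which encode enzymes of the pathway, and Srebf2 and Insig1, which encode regulators of it. They were taken by name from the 19938 genes that had a row with exactly 1 gene symbol in the array annotation, and all 8 were measured. Idi1 and Fdft1 had more than 1 such row, and the brightest over all arrays was used. Cholesterol uptake is in the working name of the set, but no uptake receptor is among the 8 genes. Genes of uptake, release and export are given below from a wider list.

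The arrays were Affymetrix Mouse Gene 1.0 ST, and every value is a log2 intensity, so a difference of 1 is a doubling. The 8 arrays came from the fraction called tumor-initiating cells (TIC, n = 4) and the CD24-negative fraction (n = 4) of primary mammary tumors under 1.0 cm in diameter. All tumors grew in FvB mice of the MMTV-Neu genotype, in which a mouse mammary tumor virus promoter drives the Neu oncogene, a form of Erbb2, in mammary epithelium. The titles name the tumors N251, N260 and N283, each with an array of either fraction, and a pool of N222 and N229, whose cells were combined before sorting because each alone gave too few. The sources used here give neither the markers of the TIC gate nor the age of the mice.

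Cholesterol is made from acetyl-CoA, first through mevalonate to isoprenoid units and then through squalene and lanosterol. When sterols run low in the endoplasmic reticulum, the transcription factor SREBP2, encoded by Srebf2, is carried to the Golgi, cut and released to the nucleus, where it activates genes of the pathway. Insig1 encodes an anchor that holds SREBP2 back when sterols are plentiful, and it is itself a target of the factor. Dividing cells need cholesterol for new membranes, and mammary epithelium also needs it for the membranes of milk fat.

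SREBP2 binds sterol regulatory elements in promoters, often beside CCAAT boxes that bind the factor NF-Y. The 250 bases upstream of the annotated start were searched on either strand for TCACCCCA, the core of the classical element, for CCAAT, for the E-box CACGTG and for the GC box GGGCGG, in RefSeq sequence of GRCm38.p6. Of the 8 genes, 6 matched an entry of the promoter table. The TCACCCCA core was found in 2 of the 6, Hmgcs1 and Srebf2, and in 1.34% of all 32851 upstream windows. CCAAT was found in 6 of the 6, against 33.8% of all windows, the GC box also in 6 of the 6, against 32.7%, and the E-box in 1 of the 6 (Insig1), against 6.02%. The windows of Hmgcs1 and Srebf2 are shown because they hold the core, which is in capitals and overlaps no other match, and that of Idi1 because it had the largest difference between fractions of the 8 genes, with its CCAAT matches (read ATTGG on this strand) in capitals.
Hmgcs1 (chr13:119690101-119690350, + strand): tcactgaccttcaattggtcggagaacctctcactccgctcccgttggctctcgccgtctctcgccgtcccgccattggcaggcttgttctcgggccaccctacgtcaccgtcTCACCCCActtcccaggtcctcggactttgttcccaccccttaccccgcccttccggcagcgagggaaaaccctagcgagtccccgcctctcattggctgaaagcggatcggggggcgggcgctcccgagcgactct
Srebf2 (chr15:82147019-82147268, + strand): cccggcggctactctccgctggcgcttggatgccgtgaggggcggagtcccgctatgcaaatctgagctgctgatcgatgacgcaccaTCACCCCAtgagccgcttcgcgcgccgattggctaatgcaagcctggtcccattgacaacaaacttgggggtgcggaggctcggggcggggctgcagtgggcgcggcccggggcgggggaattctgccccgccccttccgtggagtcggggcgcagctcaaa
Idi1 (chr13:8885356-8885605, + strand): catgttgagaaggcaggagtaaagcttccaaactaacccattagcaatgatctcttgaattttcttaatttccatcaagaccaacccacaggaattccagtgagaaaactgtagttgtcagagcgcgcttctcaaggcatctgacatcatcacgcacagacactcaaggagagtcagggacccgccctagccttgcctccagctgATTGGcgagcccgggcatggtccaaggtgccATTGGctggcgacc
The core starts 137 bases upstream of the annotated start in Hmgcs1 and 162 bases upstream in Srebf2, while the CCAAT matches of Idi1 start 45 and 14 bases upstream. No TCACCCCA was found in the Idi1 window, which says only that these letters are not there.

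The mean of each of the 8 genes was higher in the TIC fraction, by 0.18 to 0.89 on the log2 scale, and none of them passed the test. Over all genes, 59.5% had a higher mean in the TIC fraction. Idi1 (1.85-fold, log2 difference 0.89 ± 0.38 SE) and Sqle (1.61-fold, 0.68 ± 0.33 SE) had the largest differences, and the other 6 differed by 0.18 to 0.28. These SEs are from the fit without a term for tumor. With the tumor as a replicate block they were 0.18 (Idi1) and 0.16 (Sqle). Of the 32 paired comparisons of 8 genes in 4 tumors, 29 were higher and 3 lower in the TIC fraction. Over all genes, 45618 of 79752 such comparisons were higher. The differences were positive in all 4 tumors for 5 genes (Hmgcs1, Idi1, Fdft1, Sqle and Lss), as they were for 23.2% of all genes. The median difference of the 8 genes was 0.27, against 0.04 over all genes.

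Test results were read from limma fits across all genes with Benjamini-Hochberg adjustment, with a call at an adjusted p under 0.05. Without a term for tumor, 0 of the 8 genes rose and 0 fell, with adjusted p-values of 0.340 (Idi1) to 0.804 (Cyp51); over all genes 0.0502% rose and 0.742% fell. At an unadjusted p under 0.05, 1 of the 8 (Idi1) was higher and 0 were lower, against 8.02% and 6.24% of all genes. With the tumor as a replicate block, which compares the fractions within each tumor, again 0 of the 8 were called (adjusted p of 0.0791 for Idi1 to 0.540 for Insig1), where 0.863% of all genes rose and 1.09% fell. With the tumor as a random block, 0 of the 8 were called either way, against 2.16% of all genes that rose and 3.04% that fell, and at an unadjusted p under 0.05, 3 of the 8 were higher and 0 lower, against 15.7% and 8.86%. At an unadjusted p under 0.05 in the blocked fit, 3 of the 8 were higher (Hmgcs1, Idi1 and Sqle) and 0 lower, against 14.2% and 8.08% of all genes. Every gene had overlapping fractions, so for 0 of the 8 did all TIC arrays lie above all CD24-negative arrays, a pattern shown by 5.19% of all genes.

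**Figure D1:**
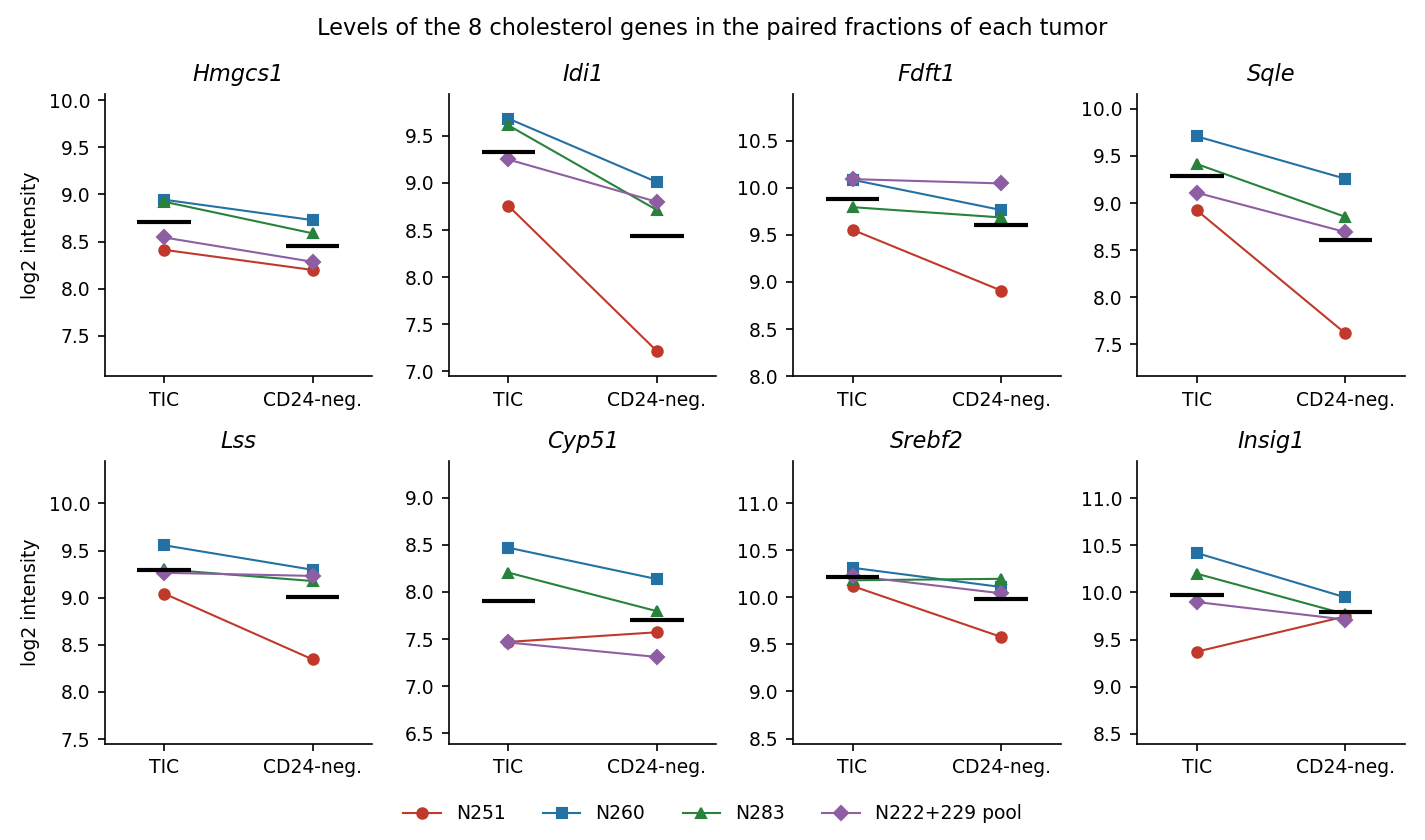
Log2 intensity of each of the 8 genes (panels) in the TIC fraction (left) and the CD24-negative fraction (right), with lines joining the 2 arrays of a tumor or pool and black bars at the means of 4 arrays; all panels span 3 log2 units. The N251 array of the CD24-negative fraction is the lowest point for Idi1, Sqle, Fdft1, Lss, Hmgcs1 and Srebf2, and the fractions overlap in every panel.

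Of the mevalonate steps, Hmgcs1 encodes the cytosolic enzyme that makes HMG-CoA, the substrate from which mevalonate is formed. Hmgcs1 was at 8.41, 8.94, 8.92 and 8.54 in the TIC arrays of N251, N260, N283 and the pool, against 8.20, 8.73, 8.59 and 8.28 in the CD24-negative fraction. The gap within each tumor was narrow and even, at 0.21, 0.22, 0.34 and 0.26, although the levels of the fractions overlapped because the tumors themselves differed by up to 0.53. The mean difference was 0.26 ± 0.06 (SD over 4 tumors), the smallest spread over tumors among the 8 genes. It was not called without the block (limma adjusted p = 0.530, 95% interval -0.12 to 0.63). With the block, which sets aside level differences between tumors, the interval was 0.09 to 0.43, again not called (limma adjusted p = 0.126). Intervals and SEs of the 8 genes are from the fit without the block unless the block is named.

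Idi1 encodes the isomerase that interconverts isopentenyl and dimethylallyl diphosphate, the isoprenoid building blocks. In the TIC arrays, in the same order of tumors, Idi1 read 8.76, 9.68, 9.61 and 9.25, against 7.22, 9.01, 8.71 and 8.80 in the CD24-negative arrays. The N251 CD24-negative array stood far below the other arrays of its fraction, and the N251 TIC array was the lowest of its fraction too. Per tumor the difference was 1.54 (N251), 0.67 (N260), 0.90 (N283) and 0.45 (the pool) (limma adjusted p = 0.340, 95% interval 0.02 to 1.76). With the block the interval was 0.44 to 1.34, and the gene was not called (limma adjusted p = 0.0791). The second row annotated to Idi1 gave a mean difference of 0.77.

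Of the squalene and sterol steps, Fdft1 encodes squalene synthase, which joins a pair of farnesyl diphosphates and commits them to sterols. Fdft1 was at 9.55, 10.08, 9.79 and 10.09 in the TIC arrays of N251, N260, N283 and the pool, against 8.91, 9.76, 9.68 and 10.05 in the CD24-negative arrays. The difference was 0.64 in N251 and 0.32 in N260 but only 0.11 in N283 and 0.05 in the pool. Its mean of 0.28 ± 0.24 SE was not called (limma adjusted p = 0.649, 95% interval -0.25 to 0.81). The second row annotated to Fdft1 also averaged 0.28, with a difference of -0.09 in N283.

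Sqle encodes squalene monooxygenase, an oxygen-dependent and rate-limiting enzyme. Sqle was at 8.92, 9.71, 9.41 and 9.11 in the TIC arrays of N251, N260, N283 and the pool, against 7.62, 9.26, 8.85 and 8.69 in the CD24-negative arrays. The difference of 1.31 in N251 was more than double that of any other tumor, and N260, N283 and the pool lay close together at 0.45, 0.56 and 0.42. The mean of 0.68 was not called (limma adjusted p = 0.382, 95% interval -0.05 to 1.42). With the block the interval was 0.28 to 1.09, and the gene was again not called (limma adjusted p = 0.105).

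Lss encodes lanosterol synthase, which closes the sterol rings. Its TIC arrays read 9.04, 9.56, 9.30 and 9.26 in N251, N260, N283 and the pool, against 8.34, 9.30, 9.18 and 9.23 in the CD24-negative arrays. The difference shrank across tumors like that of Fdft1, with 0.70 (N251), 0.26 (N260), 0.12 (N283) and 0.03 (the pool) (limma adjusted p = 0.607, 95% interval -0.21 to 0.76). Cyp51, which encodes the cytochrome P450 that demethylates lanosterol, was at 7.47, 8.47, 8.20 and 7.46 in the TIC arrays, against 7.57, 8.14, 7.80 and 7.31 in the CD24-negative arrays. N260 and N283 were the high tumors in either fraction, and N251 had the only lower TIC value, by -0.10. The mean of 0.20 was not called (limma adjusted p = 0.804, 95% interval -0.40 to 0.80).

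The regulators Srebf2 and Insig1 differed by 0.23 and 0.18 and, like Cyp51, stood among the smallest differences of the 8 genes. Srebf2 was at 10.12, 10.31, 10.18 and 10.23 in the TIC arrays of N251, N260, N283 and the pool, against 9.58, 10.11, 10.20 and 10.04 in the CD24-negative arrays. Its TIC arrays spanned only 0.19, the narrowest range of the 8 genes in that fraction, whereas its CD24-negative arrays spanned 0.62 because of the low N251 array. The difference of 0.23 ± 0.14 SE was not called (limma adjusted p = 0.497, 95% interval -0.08 to 0.54), and it was -0.02 in N283.

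Insig1, like Cyp51, was lower in the TIC array of N251. It was at 9.37, 10.42, 10.20 and 9.90 in the TIC arrays of N251, N260, N283 and the pool, against 9.75, 9.95, 9.77 and 9.71 in the CD24-negative arrays. Its CD24-negative arrays spanned 0.24, the narrowest range in that fraction, and its TIC arrays 1.05. Its difference was -0.37 (N251), 0.47 (N260), 0.43 (N283) and 0.19 (the pool), with a mean of 0.18 ± 0.20 SE (limma adjusted p = 0.758, 95% interval -0.28 to 0.64).

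**Figure D2:**
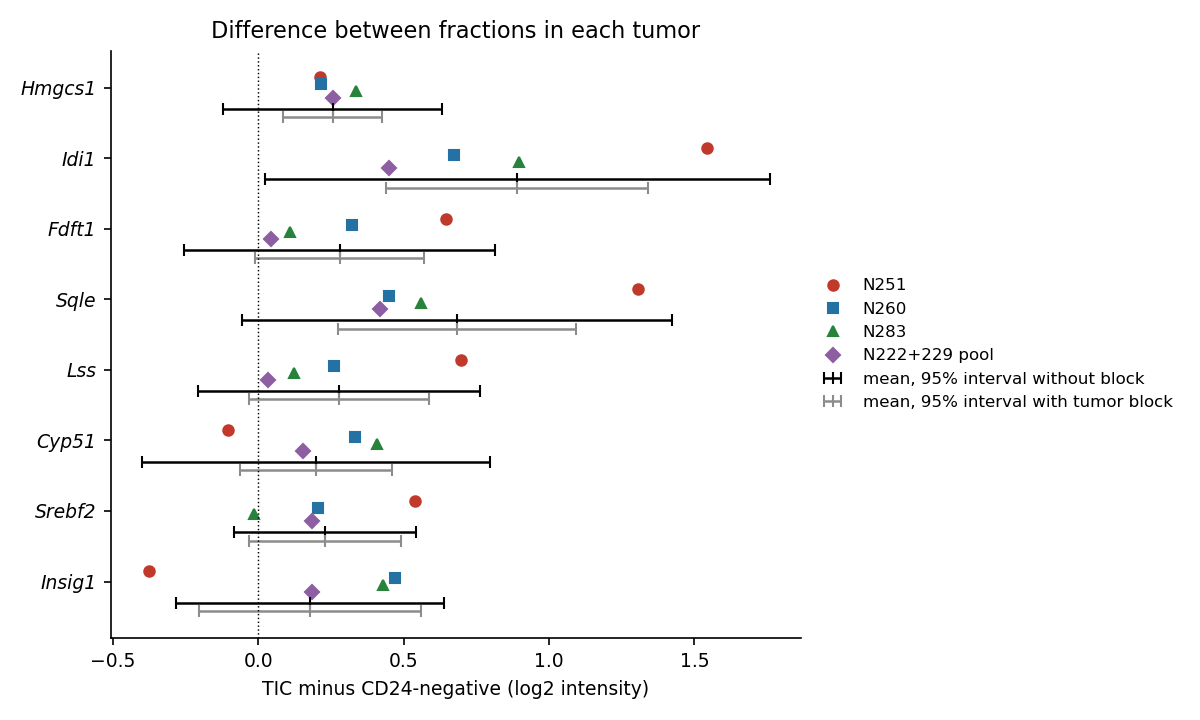
TIC minus CD24-negative difference (log2 intensity, horizontal axis) of each of the 8 genes in each tumor (points), with the mean and its 95% interval from limma without a tumor term (black) and with the tumor as a block (grey). Idi1 and Sqle lie to the right of the other genes, and N251 is the rightmost point for 5 genes but the leftmost for Hmgcs1, Cyp51 and Insig1.

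Tumor N251 stood apart in these values. Its TIC array was the lowest of the 4 for 7 of the 8 genes and its CD24-negative array for 6 of the 8, while N260 was highest for 7 and 6 genes in those fractions. Leaving out both arrays of N251 in the blocked fit, a setting chosen after the data were seen, Idi1 differed by 0.67 (adjusted p = 0.0322) and Sqle by 0.48 (adjusted p = 0.0374, limma), so 2 of the 8 rose and 0 fell, where 1.81% of all genes rose and 2.41% fell. At an unadjusted p under 0.05, 5 of the 8 were higher and 0 lower, against 11.2% and 7.17% of all genes. In the same setting the differences of Fdft1 (0.16), Lss (0.14) and Srebf2 (0.12) were over 1.5 times smaller than with all tumors. Insig1 then differed by 0.36 and Cyp51 by 0.30 (limma adjusted p = 0.105 and 0.149), and Hmgcs1 was almost unmoved at 0.27. Leaving out any other tumor gave 0 called genes of the 8 with the block, but without N260 or N283 that fit called 0 genes of the whole table.

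Across the 8 arrays the genes fell into patterns that differed in tightness. As a description over arrays that share tumors, Idi1 and Sqle had a Pearson correlation of 0.98 with each other, and Lss had 0.96 with Idi1 and 0.95 with Sqle. Srebf2 had 0.95 with Lss. Cyp51 and Insig1 stood apart, with correlations of 0.62 and 0.66 with the mean of the other 7 genes, against 0.77 for Fdft1 and 0.89 to 0.97 for the others. Cyp51 was closest to Hmgcs1 (0.90).

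The 5 genes outside the pathway list whose profile over the 8 arrays was most like the mean profile of the 8 genes were Sf3b3, a subunit of the splicing factor SF3B (Pearson 0.99), Nucks1, a nuclear phosphoprotein (0.98), Trmt44, a tRNA methyltransferase (0.98), Dgcr8, a partner of Drosha in microRNA processing (0.97), and Adamts3, a procollagen protease (0.97). These are the highest correlations of a search over most of the table with only 8 arrays. None of the 5 was called (limma adjusted p of 0.367 to 0.722, and 0.113 to 0.474 with the block). The same arrays served for the choice and the fits, so these results add no separate evidence.

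Immune cell markers moved most with the sort. Leukocyte markers were lower in the TIC fraction, where 6 of 8 fell, as did 3 of 7 T and NK cell markers, against 0.742% of all genes. The summed level of the leukocyte markers ran from 11.8 to 12.0 in the TIC arrays and from 13.2 to 15.3 in the CD24-negative arrays (log2 of summed intensity). In the TIC arrays most of this sum was Lcp1, at 11.59 to 11.78. Lcp1 differed by only -0.30 (limma adjusted p = 0.542) and was higher in the TIC array of the pool. Ptprc, which encodes CD45, differed by -4.29 (limma adjusted p = 0.0135) and Csf1r of macrophages by -5.06 (adjusted p = 0.00224). The 8 fibroblast and 8 endothelial markers had median differences of -0.19 and -0.13, with 0 of either list called without the block. Means were lower for 7 and higher for 1 of the fibroblast markers, and lower for 6 and higher for 2 of the endothelial markers. The largest differences were those of Thy1 (-1.73) and Dcn (-1.55) in the fibroblast list and Eng (-0.96) in the endothelial list. With the replicate block 1 fibroblast marker (Thy1, limma adjusted p = 0.0416) and 0 endothelial markers fell, against 1.09% of all genes. With the random block 2 (Thy1 and Lum) and 0 fell, against 3.04%. The 10 luminal epithelial markers were bright in either fraction, with 0 of 10 called. At an unadjusted p under 0.05, 2 of the 10 were higher (limma), against 8.02% of all genes. The summed level of the luminal markers ran from 14.7 to 14.8 in the TIC arrays and from 13.7 to 14.7 in the CD24-negative arrays. Cd24a itself averaged 12.32 ± 0.21 in TIC arrays and 11.22 ± 0.67 in CD24-negative arrays (SD, n = 4 each), and was higher in the TIC array of all 4 tumors. Its difference of 1.11 was not called without or with the block (limma adjusted p = 0.148 and 0.0691) but was called with the random block (adjusted p = 0.0293). In bulk RNA of this kind, fewer cells of a type and less RNA per cell cannot be told apart.

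The median difference of the 8 genes and the mean difference of the luminal markers were both highest in N251, although Hmgcs1, Cyp51 and Insig1 had their lowest difference there. The 8 genes had median differences of 0.59 (N251), 0.33 (N260), 0.37 (N283) and 0.19 (the pool), beside mean differences of the luminal markers of 1.00, 0.26, 0.05 and 0.14. The leukocyte markers differed by -4.98, -4.50, -3.62 and -2.69 in the same order. The 11 proliferation genes differed by 0.86, 0.84, 1.33 and 1.08, with 0 called without the block, 9 higher with it and 6 higher with the random block. Over all genes 0.0502%, 0.863% and 2.16% rose in these fits. Of the 11 genes, Mki67 differed by 0.72 on average (limma adjusted p = 0.360, 0.0424 with the block and 0.0838 with the random block). The part of these in the cholesterol differences was not tested.

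The differences were also set against the mean of the luminal markers of the same array. This scale, chosen after the data were seen, lowers every gene's mean difference by 0.36, so any gene with a smaller difference turns negative by construction. On it Idi1 differed by 0.54 (N251), 0.41 (N260), 0.85 (N283) and 0.31 (the pool), and Sqle by 0.30, 0.19, 0.51 and 0.27. These 2 genes, which had the largest differences of the 8, stayed higher in all 4 tumors. Hsd17b7 and Vldlr of the wider list did so too, and the share over all genes was not counted. The other 6 of the 8 genes had mean differences of -0.19 to -0.08, against a median of -0.33 over all genes. All 6 were negative in N251. Insig1 was at -1.38 in N251 but 0.21, 0.38 and 0.04 in N260, N283 and the pool, and Cyp51 at -1.10 in N251 but 0.07, 0.36 and 0.01. Hmgcs1 and Fdft1 were positive in 2 of the 4 tumors, and Lss and Srebf2 in 1. Of the 8 genes 0 were called on this scale (limma adjusted p of 0.375 to 0.769), where 0.01% of all genes rose and 1.69% fell. At an unadjusted p under 0.05, again 0 of the 8 were higher or lower, against 0.572% and 11.1% of all genes.

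**Figure D3:**
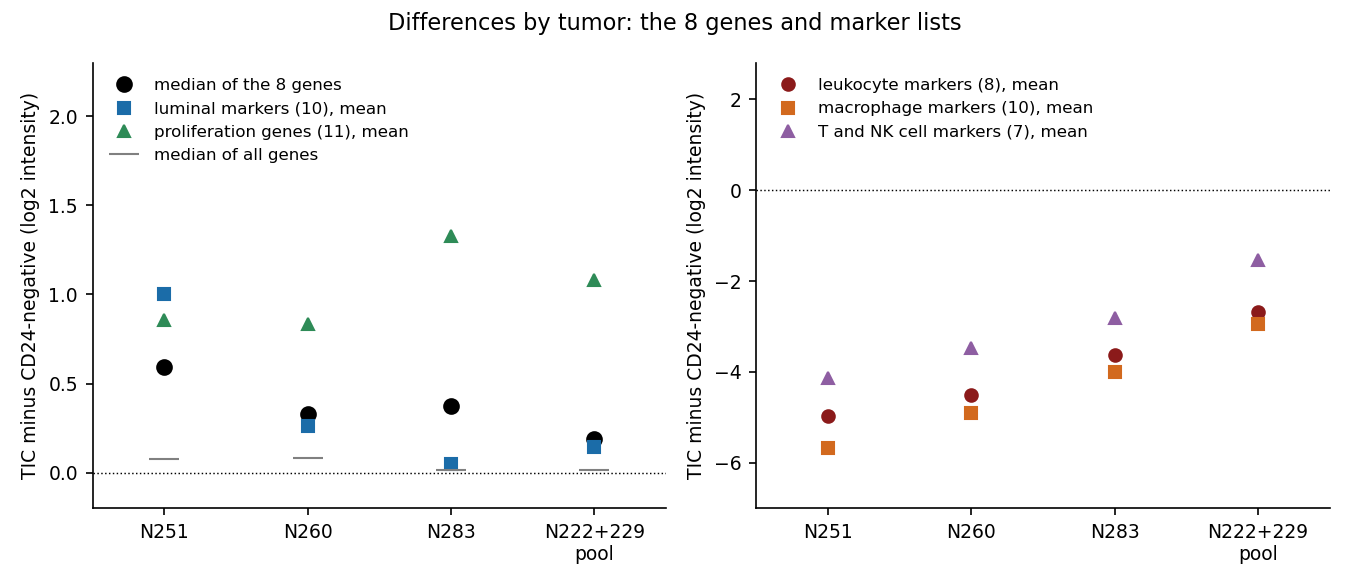
TIC minus CD24-negative difference (log2 intensity, vertical axis) in each tumor: left, the median of the 8 genes, the means of 10 luminal markers and 11 proliferation genes and the median of all genes; right, the means of the leukocyte, macrophage and T and NK cell markers. N251 has the highest value for the 8 genes (0.59) and for the luminal markers (1.00), and the leukocyte lists are below 0 in every tumor.

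A wider list of 47 cholesterol genes, of which 38 were measured and 8 are those above, gave the rest of the pathway. Of the other 30 genes, 20 (66.7%) had higher and 10 had lower means in the TIC fraction, where 59.5% of all genes had higher means. The median difference of the 30 was 0.14, against 0.04 over all genes. Without the block 0 of the 30 rose and 1 fell (0.0502% and 0.742% of all genes), with it 1 rose and 1 fell (0.863% and 1.09%), and with the random block 0 rose and 3 fell (2.16% and 3.04%). The 12 measured sterol enzymes had a median difference of 0.23 and the 7 mevalonate enzymes 0.14, with 0 of either group called without the block, and the 4 genes of efflux and ester turnover had -1.39, with 1 of 4 (Apoe) called.

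Among the mevalonate enzymes, Fdps, which makes farnesyl diphosphate, was at 9.45, 10.23, 10.14 and 9.32 in the TIC arrays of N251, N260, N283 and the pool, against 8.75, 9.62, 9.62 and 8.94 in the CD24-negative arrays. It was higher in each tumor, by 0.37 to 0.70, and rose with the tumor as a replicate block (limma adjusted p = 0.0434) but not without it (adjusted p = 0.405). With the tumor as a random block the call was lost (adjusted p = 0.107, limma). The other 4 mevalonate genes beside the 8 (Mvk, Pmvk, Mvd and Ggps1) differed by 0.11 to 0.14.

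Among the sterol enzymes, Hsd17b7, a ketosteroid reductase that acts in the removal of the methyl groups of lanosterol, ranged over 8.91 to 9.25 in the TIC arrays, against 7.86 to 8.87 in the CD24-negative arrays. All its TIC arrays lay above all its CD24-negative arrays. Of the 38 measured genes of the list, 2 showed this pattern (Hsd17b7 and Ebp), against 5.19% of all genes. The Hsd17b7 difference of 0.58 ± 0.21 SE was not called (limma adjusted p = 0.254, and 0.0946 with the block). It was called with the block without N251 (adjusted p = 0.0492, limma). Dhcr7, which catalyses the last reduction to cholesterol, differed by 0.45 (adjusted p = 0.343, limma). Msmo1, a methyl sterol oxidase gene, was the only sterol enzyme with a lower mean, at -0.12, and was higher in the TIC fraction of N283 alone.

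Of the control genes, Mylip, which encodes a ubiquitin ligase that degrades lipoprotein receptors and is induced by sterols, had the smallest p, with a difference of -0.63 and lower values in all 4 tumors (limma adjusted p = 0.276). The control genes Srebf1, Scap, Insig2, Mbtps1 and Stard4 differed by 0.17 to 0.30 and Nr1h3 by -0.11, none called.

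Of the uptake genes, the lipoprotein receptor gene Vldlr differed by 0.62 on average but by 1.81 in N251 and 0.09 to 0.33 elsewhere. Scarb1, the receptor for high-density lipoprotein, differed by 0.26 to 0.46 in the 4 tumors. Neither was called without the block (limma adjusted p = 0.443 and 0.424) or with it (0.282 and 0.0700). Lipa, the lysosomal lipase that frees cholesterol from its esters, was at 9.27, 9.38, 9.67 and 9.64 in the TIC arrays, against 11.81, 11.13, 10.42 and 10.55 in the CD24-negative arrays. All TIC arrays lay below all CD24-negative arrays for 2 of the 6 measured genes of this group, Lipa and Npc1, against 4.68% of all genes. The Lipa difference of -1.49 was not called without or with the block (limma adjusted p = 0.0515 and 0.0793). It was called with the random block (adjusted p = 0.0169) and with the block without N251 (adjusted p = 0.0373, limma). The lysosomal cholesterol transporters Npc1 and Npc2 differed by -0.41 and -0.26 and were lower in all 4 tumors.

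All 4 genes of efflux and ester turnover were lower in the TIC array of every tumor. Apoe, the lipoprotein component that carries cholesterol away from macrophages, was at 9.82, 9.94, 9.78 and 10.81 in the TIC arrays, against 14.12, 13.64, 13.08 and 12.92 in the CD24-negative arrays. It fell by 3.35 on the log2 scale (± 0.31 SE, limma adjusted p = 0.00195, and 0.0226 with the block). The cholesterol exporters Abca1 and Abcg1 differed by -1.44 and -1.35, and the ester hydrolase gene Nceh1 by -1.02, with adjusted p-values of 0.219, 0.245 and 0.108 (limma). Of these, Nceh1 was called with the random block (adjusted p = 0.0225) and with the block without N251 (adjusted p = 0.0374, limma). For Apoe, Abca1, Abcg1 and Nceh1 the fractions did not overlap, a pattern of lower TIC arrays shown by 4.68% of all genes. The macrophage markers, of which 8 of 10 fell (against 0.742% of all genes), differed by -5.68 (N251), -4.90 (N260), -4.00 (N283) and -2.94 (the pool), and these 4 genes -2.61, -2.19, -1.61 and -0.75 (means over the list). The part of the macrophage markers in the differences of these 4 genes was not tested.

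**Figure D4:**
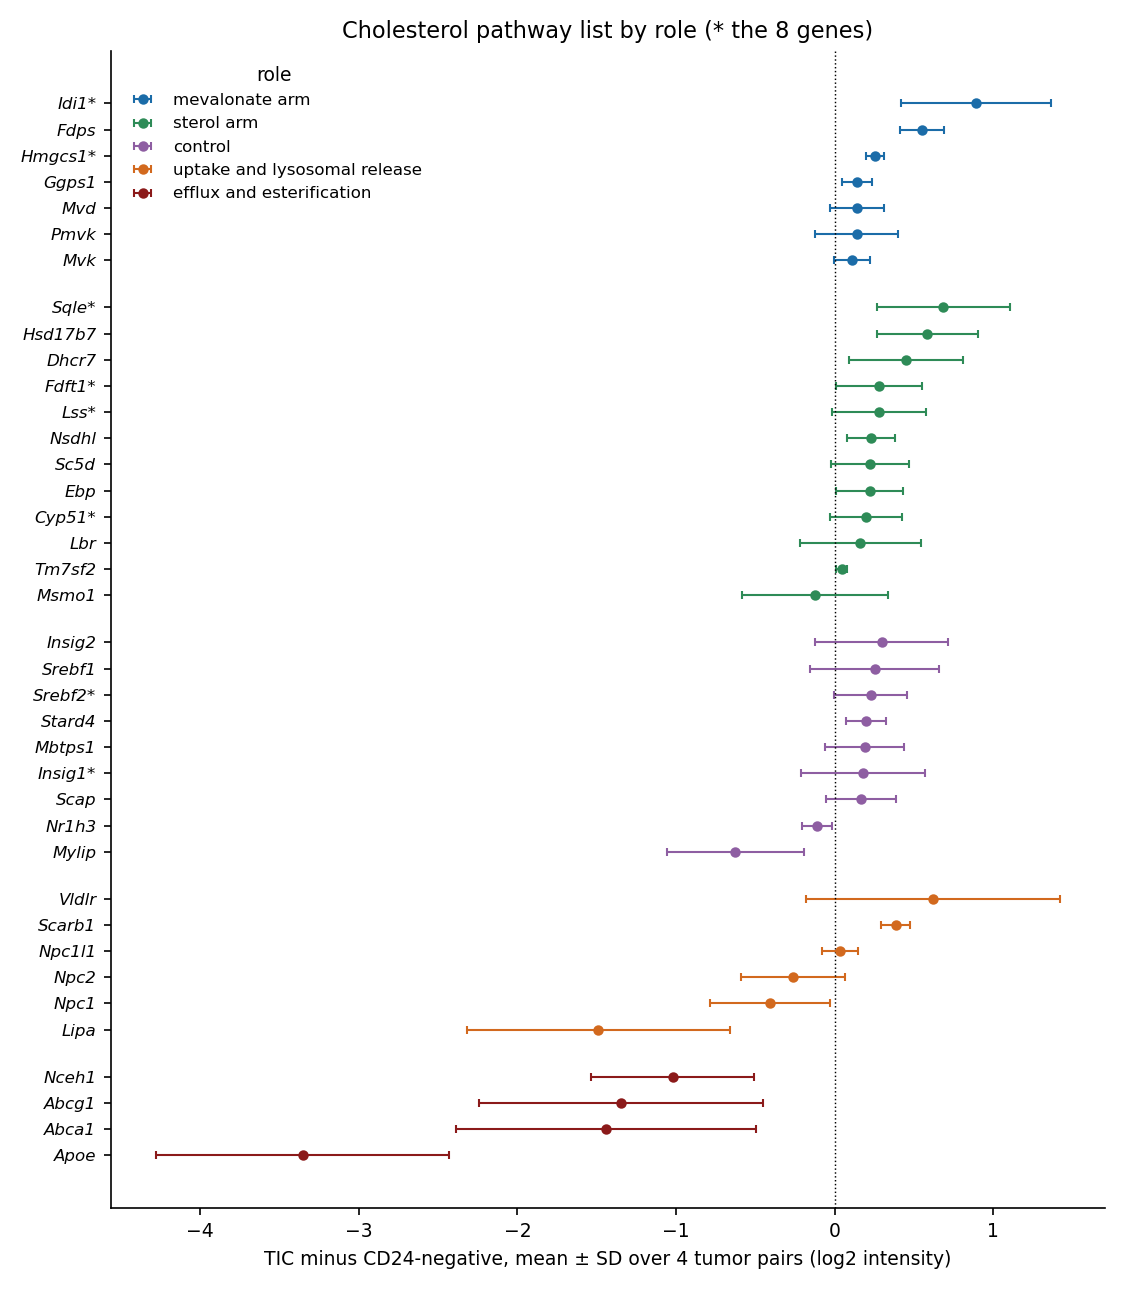
TIC minus CD24-negative difference (log2 intensity, horizontal axis; mean ± SD over the 4 tumors) of the 38 measured genes of the cholesterol list, grouped by role, with the 8 genes starred. Synthesis genes lie mostly between 0 and 0.89, and the 4 genes of efflux and ester turnover lie between -3.35 and -1.02.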

How the data were processed

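RNA of 8 sorted samples was read on single-colour Affymetrix Mouse Gene 1.0 ST arrays, 1 array a sample. The deposited values are log2 intensities per transcript cluster. Per the submitters' processing notes the authors used RMA and Partek; the sources used here give no versions, settings or genome build. Array medians were 7.03 to 7.18 and correlations between arrays 0.929 to 0.991, with no duplicate array. The number of arrays limits the precision. No background level comes with the values, so levels of dim genes are uncertain.

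Of 35556 rows, 21789 carried exactly 1 symbol, 1621 several and 12146 none. A lookup by gene identifier in a RefSeq table (GRCm38.p6, names only) matched 21698 rows and renamed 0. The brightest row stood for each of 999 genes with several rows. Differences are TIC minus CD24-negative, from limma 3.58.1 under R 4.3.3, with lmFit and eBayes, on all 8 arrays and 19938 genes, without a block or filter. The fit was also run on simulated data with added shifts of 1 and 2. These are larger than the differences of the 8 genes, so that run does not show how often differences of their size are found. The titles pair the fractions by tumor; after subtracting group means, the arrays of a pair correlated at 0.32 (N251), 0.43 (N260), 0.30 (N283) and 0.56 (the pool), which was taken as pairing. The protocol text spells 2 tumor names differently from the titles, which were followed. The arrays measure tumors. Without the block, p-values rest on the spread of the 4 arrays within each fraction. With the block, they rest on the spread of the differences over 4 pairs, where the pool counts as a pair.

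The members and lists were chosen with earlier results of these data known. Named are the 8 genes, the pathway genes called with or without the block, the gene of smallest p in each role group, 5 genes of most similar profile (without predicted genes with Gm, LOC or Rik symbols), and Cd24a, Ptprc, Csf1r, Epcam, Krt8 and Mki67, of which Epcam and Krt8 differed by 0.40 and 0.43 (limma adjusted p = 0.382 and 0.568). Other pathway genes, and the markers Thy1, Dcn, Lum and Eng, were named after their values were seen. Alternatives covered blocks, scaling, filters, weights, the prior, row choice, the threshold and left-out arrays and tumors.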

Additional observations from a re-analysis of the deposited data

Results flagged for a closer look

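The CD24-negative array of N251 was far below the other 3 of its fraction for Idi1, at 7.22, where its gap to the next array was 0.835 of the whole range of the 4. The same array was far below for Lss, at 8.34, with a gap of 0.874 of the range. The paired difference of Sqle in N251, 1.31, stood above those of the other tumors with a gap of 0.839 of the range. Each gap exceeded the 95% limit of Dixon's test for 4 values. In all 24 groups of 4 values were examined, of which chance flags about 1 in 20. All 3 values come from N251, the tumor whose CD24-negative array also had the lowest mean level of luminal markers (9.71, against 10.39 to 10.57 in the other CD24-negative arrays) and the highest of leukocyte markers (12.00, against 9.63 to 11.29).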

How the results depend on the processing

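None of the 8 genes was called in the 20 settings planned for it (adjusted p of 0.0791 to 0.997). Their means stayed higher in the TIC fraction, but several settings (blocks, prior, threshold, filter) cannot move a mean. Leaving out 1 array moved them by over 1.5 times: without the TIC array of N260, Cyp51 was at 0.0094 and Insig1 at 0.029, and without the CD24-negative array of N251, Idi1 was at 0.48, Sqle at 0.35, Fdft1 at 0.050, Lss at 0.057 and Srebf2 at 0.095. Settings added after the data were seen changed this. With the tumor as a replicate block and the arrays of N251 left out, 2 of the 8 rose, and in the wider list 4 rose and 3 fell. With the block and N260, N283 or the pool left out, 0, 0 and 3 of the list fell, against 1. Relative to the luminal markers, with or without the block, the differences reversed to -0.11 (Hmgcs1), -0.084 (Fdft1), -0.085 (Lss), -0.17 (Cyp51), -0.14 (Srebf2) and -0.19 (Insig1), and the median of the 8 to -0.096; by construction this scale subtracts 0.36 from every gene. On it 2 genes of the list fell without the block and 6 with it. In the list, the replicate block gave 1 that rose, the random block 3 that fell and array weights 5 that fell. With 1 array or tumor omitted, 0 to 2 fell (0 without N260, and 2 without the CD24-negative array of N251, N283 or the pool). Over all genes, higher calls ran from 0 to 46 and lower calls from 8 to 583 in those settings, against 10 and 148. The block moved these to 172 and 218, and among the named genes changed the calls of Fdps, Mki67, Lpl and Thy1 only. The random block changed those of Lipa, Nceh1, Cd24a, Lpl, Thy1 and Lum. Further higher and lower counts were 430 and 606 (random block), 191 and 778 (array weights), 26 and 183 (median centring), 5 and 100 (genes at or above the median level), 0 and 58 (adjusted p under 0.01), and 2 and 336 relative to the luminal markers, or 34 and 1004 with the block. The block gave 360 and 480 without N251, 74 and 299 without the pool, and 0 and 0 without N260 or N283. The causes were not tested.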

Other observations

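Of 8 adipocyte markers, 0 were called without the block and 1 fell with it, where 0.742% and 1.09% of all genes fell. The median difference of the 8 markers was -0.01. Adipoq and Plin1, genes of mature fat cells, stood at 4.91 to 5.13 and 6.75 to 7.26 in the TIC arrays, against 4.85 to 5.17 and 6.68 to 7.25 in the CD24-negative arrays. Pparg, a regulator of fat cell genes that macrophages also express, differed by -0.66 (limma adjusted p = 0.212) and was lower in all 4 tumors. The gene that fell was Lpl, the lipoprotein lipase gene, which macrophages also express. Lpl averaged 6.96 ± 0.34 in TIC arrays and 9.18 ± 0.99 in CD24-negative arrays (SD, n = 4 each; limma adjusted p = 0.0561, and 0.0265 with the block). Adipoq, Plin1, Pparg and Lpl were picked after their values were seen.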
